A study of Mus musculus with 2 samples.

Results

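Hepatic stellate cells were examined as 762 barcodes, 439 in the WT library and 323 in the N-LKO library, among 42372 barcodes that passed the filters. A barcode tags the transcripts of 1 droplet and usually stands for 1 cell. A barcode was taken as a stellate cell when it held at least 3 UMIs (unique molecular identifiers, each marking 1 captured transcript) of Dcn, Reln, Colec11, Lrat and Ecm1 together, and at most 1 UMI of 7 markers of Kupffer cells, endothelial cells, T cells and B cells. The levels of these genes in the same barcodes therefore chose the members, and the 5 stellate markers are described below without being read as findings. No member barcode was shared between the libraries, against 139 shared among all barcodes past the filters.

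Both libraries came from male mice on a C57BL6 background, and there was 1 library in each group. The WT library was labelled with the genotype CTRL and the tissue liver. The N-LKO library came from mice with floxed NgBR alleles and albumin-Cre, which is active in hepatocytes, and its tissue was liver plus tumor. NgBR, the product of Nus1, is a subunit of the enzyme that makes dolichol, the lipid carrier for N-glycosylation. The treatment labels give 16 weeks of WD (Western diet) for both groups, while the sample titles name an HFD for both. Hepatocytes and nonparenchymal cells were mixed at set ratios before loading, and tumor cells were added to the N-LKO mix. Genotype, tumor tissue and library therefore cannot be told apart, and no difference below has a replicate check.

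Stellate cells are the pericytes of the hepatic sinusoid. In healthy liver they lie between hepatocytes and endothelium, store vitamin A as retinyl esters in lipid droplets, and secrete growth factors that act on both neighbors. In injured liver they can lose their retinoid stores and become contractile, matrix-producing myofibroblasts, and they are the main source of fibrillar collagen in fibrosis. The deleted allele was in hepatocytes, so stellate cells kept the Nus1 gene. Nus1 stood at 65.2 CPM in WT and at 57.1 CPM in the N-LKO stellate barcodes, where CPM is the gene's UMIs over all UMIs of the member barcodes, times 1000000. The log2 ratio of N-LKO over WT was -0.18, with a 95% counting interval from -0.90 to 0.50. The deleted exon lies at the 5′ end and the libraries read 3′ ends, so this value does not check the genotype label.

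The member barcodes held 690092 UMIs in WT and 543009 in N-LKO, with a median of 1417 and 1508 UMIs and of 863 and 881 genes per barcode. Mitochondrial transcripts took a median of 12.04% of UMIs in WT and 16.94% in N-LKO, and the nuclear RNA Malat1 took 1.70% and 1.73%. Transcripts of 16 hepatocyte genes, such as Alb and Apoa1, made up 51957 CPM of WT stellate barcodes and 28307 CPM of N-LKO stellate barcodes. Barcodes under 500 UMIs, used as a measure of free RNA in the suspension, were also richer in these transcripts in WT. They held 112933 CPM (WT) and 59636 CPM (N-LKO). The deposited barcodes started at 326 UMIs in WT and 377 in N-LKO, so emptier droplets had no part in this measure. Whether some of the barcodes under 500 UMIs held damaged cells was not tested. The share of free RNA in member barcodes was estimated at 46.0% and 47.5%, taking every hepatocyte transcript in them as free RNA. A doublet score of 0.25 or more was given to 45 WT members (10.3%) and 28 N-LKO members (8.67%).

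The label was checked with a second marker list that the rule had not used, of 6 genes that included Sod3, Prelp, Colec10, Cygb and Rgs5. Their summed level was 3672 in WT and 3201 CPM in N-LKO stellate barcodes, against 79.2 and 138 CPM in free RNA. It was 110 and 111 CPM in endothelial barcodes, and 65.7 and 61.0 CPM in Kupffer barcodes. The nearly even sum does not stand for each gene. Of the 6, 5 were lower in N-LKO and 1 was higher, each with an interval that did not reach 0, and the median log2 ratio was -0.58. Members just inside the threshold were less clear. The 65 WT barcodes with exactly 3 UMIs of the rule markers held 444 CPM of the second list, near the 297 CPM of the 226 WT barcodes with 2 UMIs, which stayed out. In N-LKO the 70 barcodes with exactly 3 UMIs held 1767 CPM and the 181 with 2 UMIs held 788 CPM. Members above 3 UMIs held 4257 in WT and 3602 CPM in N-LKO. Barcodes at the threshold in WT carried 101323 CPM of hepatocyte transcripts, against 43010 CPM above it.

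Stellate barcodes were a smaller share of the N-LKO library. They were 2.18% (95% Clopper-Pearson interval 1.98 to 2.39) of filtered barcodes in WT and 1.45% (1.30 to 1.62) in N-LKO. Because hepatocytes, nonparenchymal cells and tumor cells had been mixed by hand, the share was also taken among stellate, endothelial and Kupffer barcodes. It was 12.4% (11.3 to 13.5) in WT and 6.30% (5.65 to 7.01) for N-LKO, which differed by -6.05 points. There were 37.3 stellate barcodes per 100 endothelial barcodes in WT, compared with 21.3 in N-LKO. The share leans on the level of the rule markers, which was itself lower in N-LKO, and on the markers that exclude other cells. With the second marker list as the rule, 330 WT and 345 N-LKO barcodes were found and the difference was -2.88 points. Without excluding markers, 1147 WT and 609 N-LKO barcodes held at least 3 UMIs of the rule markers, and the difference was -15.7 points. Of the barcodes left out by the excluding markers, 74.7% in WT and 59.4% in N-LKO held Stab2, an endothelial receptor, and 62.7% and 60.5% held Cd5l, a Kupffer cell marker.

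The 5 genes that defined the cells were each lower in N-LKO than in WT. Ecm1, a matrix protein that restrains the activation of latent TGF-beta, was at 962 in WT and 348 CPM in N-LKO. Lrat, the enzyme that esterifies retinol for storage, was at 493 and 234 CPM. Colec11, a secreted collectin, was at 998 and 503 CPM, Reln (reelin) at 1869 and 1193 CPM, and the proteoglycan Dcn (decorin) at 3763 and 2508 CPM. Each gene was then measured in barcodes chosen without it, with the other 4 markers as the rule. The log2 ratio was -1.52 (-1.77 to -1.28) for Ecm1, -1.09 (-1.41 to -0.79) for Lrat, -1.03 (-1.25 to -0.82) for Colec11, -0.92 (-1.09 to -0.76) for Reln and -0.63 (-0.74 to -0.52) for Dcn. In barcodes chosen by the second marker list, none of the 5 genes had been used, and the log2 ratios were between -2.02 for Ecm1 and -1.30 for Reln. Each gene was thus lower in N-LKO also where it had no part in the rule. Reln, Lrat and Ecm1 were among the genes the study showed from these libraries.

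Genes of stellate identity and quiescence were lower as a group in N-LKO. The list held 25 genes outside the rule, of which 22 passed the filter of a mean of 20 CPM over the 2 libraries. Their median log2 ratio was -0.82, beside 0.03 for all 7012 genes past the filter, and 18 of the 22 were lower. 8 were at least 2-fold lower and 1 was at least 2-fold higher, whereas 7.62% of all genes were at least 2-fold lower and 6.49% at least 2-fold higher. The counting interval lay below 0 for 17 genes of the list, beside 15.5% of all genes, and above 0 for 1, beside 982 of all 7012 genes. The summed level of the list was 8508 in WT and 5871 CPM in N-LKO.

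**Figure D1:**
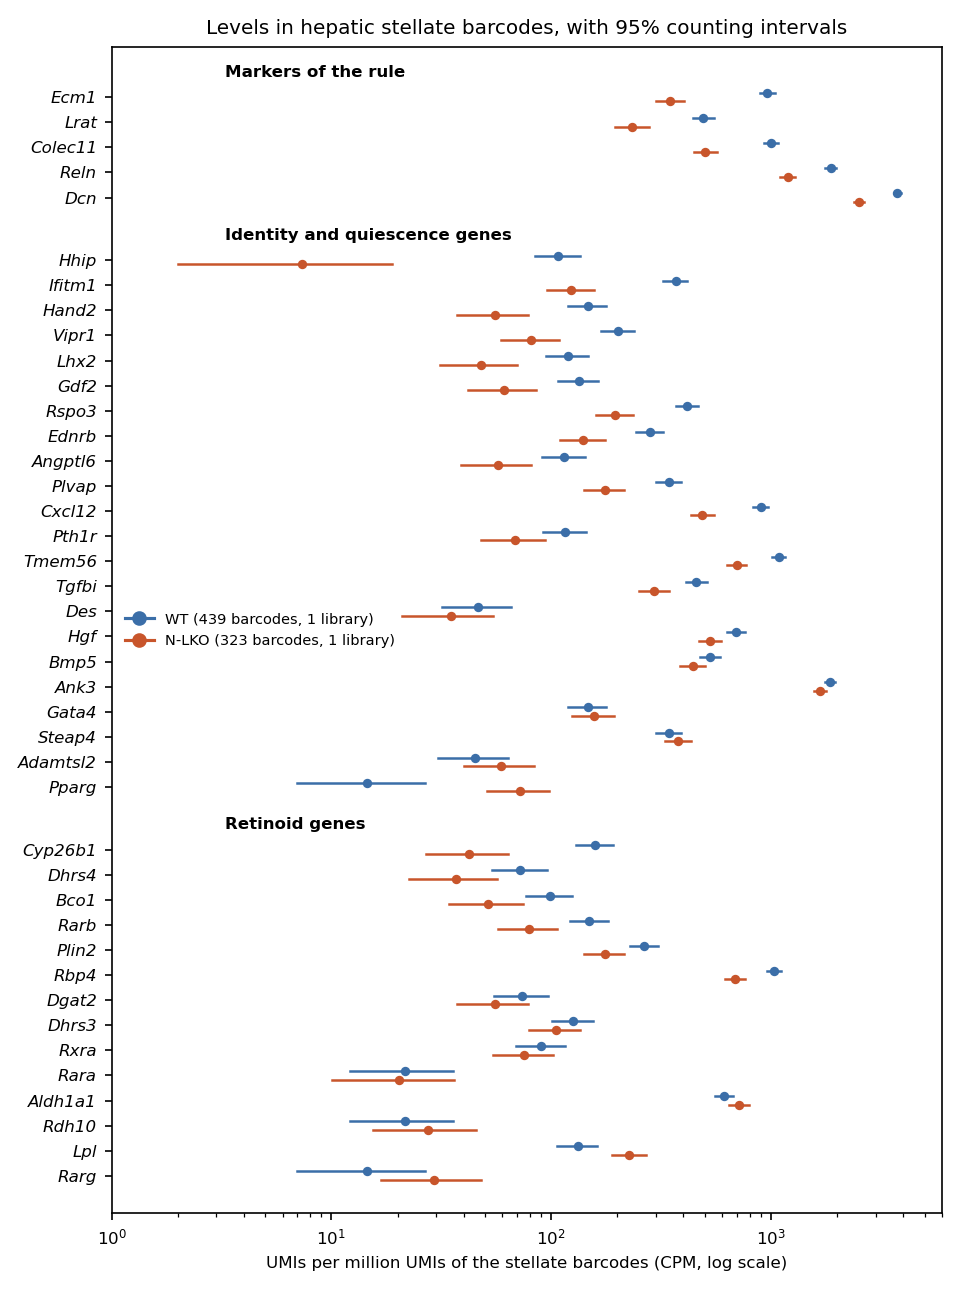
Levels in CPM on a log scale of the markers of the rule and of the identity and retinoid genes past the filter that are reported singly, with 1 point per library (WT blue, N-LKO orange) and 95% Poisson intervals. For 18 of the 22 identity genes the N-LKO point lies to the left of the WT point, with the widest gap for Hhip (107 in WT and 7.37 CPM in N-LKO).

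Hhip, a membrane protein that binds and sequesters hedgehog ligands, showed the widest gap of the list. It was at 107 CPM in WT (74 UMIs in 61 barcodes) and at 7.37 CPM in N-LKO (4 UMIs in 4 barcodes), with a log2 ratio of -3.70 (-5.78 to -2.45). After thinning every barcode to 1000 UMIs, 10.0% of WT and 0.619% of N-LKO stellate barcodes held a UMI of Hhip. No UMI was found in the thinned endothelial barcodes of either library, whose median depth before thinning was 1263 and 1417 UMIs. Before thinning, Hhip was at 0.602 CPM in WT endothelial barcodes and at 0 CPM in N-LKO endothelial barcodes. Its log2 ratio stayed between -4.61 and -2.79 over 25 other settings of the analysis. Other hedgehog genes differed less. Ptch1, the ligand receptor and a target of the pathway, was at 50.7 and 42.4 CPM, and Gli3 was at 62.3 and 62.6 CPM.

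Transcription factors of the stellate lineage were divided. Hand2, a factor of mesenchymal cells, was at 146 CPM in WT and 55.2 in N-LKO, with a log2 ratio of -1.39 (-2.04 to -0.81). Lhx2, a factor whose loss in mice leads to stellate activation, was at 119 and 47.9 CPM, a log2 ratio of -1.29 (-2.01 to -0.66). Gata4, a factor that restrains the fibrogenic state, was at 146 and 157 CPM, and its interval of -0.34 to 0.53 spanned 0. Pparg, a nuclear receptor linked with the quiescent state, went the other way, at 14.5 CPM in WT and 71.8 in N-LKO, with a log2 ratio of 2.26 (1.28 to 3.48). Free RNA held 14.5 and 37.9 CPM of Pparg, endothelial barcodes 37.9 and 106 CPM, and its log2 ratio was 0.49 in barcodes with at most 10% mitochondrial UMIs.

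Secreted factors and receptors of quiescent stellate cells made up most of the remaining list. Gdf2 (BMP9), a ligand that keeps the sinusoidal endothelium differentiated, was at 133 in WT and 60.8 CPM in N-LKO. Rspo3, which amplifies Wnt signals to pericentral hepatocytes, was at 416 and 195 CPM. Cxcl12, a chemokine, was at 897 and 488 CPM, and Hgf, the growth factor for hepatocytes, was at 694 and 530 CPM. Their log2 ratios ran from -1.12 for Gdf2 to -0.39 for Hgf, and none of the 4 counting intervals reached 0. Among receptors, Vipr1, for vasoactive intestinal peptide, was at 201 and 81.0 CPM, and Ednrb, the endothelin B receptor, was at 281 and 140 CPM. Ifitm1, an interferon-inducible membrane protein, was at 368 and 123 CPM. Plvap was at 343 and 175 CPM and Tgfbi at 458 and 295 CPM. Both were shown by the study from these same libraries, so they are not independent evidence of direction. Of the list, 11 genes also passed the filter in endothelial barcodes, with a median log2 ratio of -0.63 in stellate and 0.27 in endothelial barcodes. In endothelial barcodes 8 of the 11 were higher and 3 lower. There 1 gene was at least 2-fold lower, beside 6.27% of all genes, so not every decrease was absent from endothelial barcodes. Of the 18 lower genes, 16 were lower under every one of the 25 other settings.

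Endothelial transcripts in the members differed in the same direction. The summed level of 11 endothelial genes, such as Kdr and Cdh5, was 1937 CPM in WT stellate barcodes and 1221 CPM in N-LKO stellate barcodes, and 5 of the 11 were at least 2-fold lower, beside 7.62% of all genes. When barcodes with 3 or more UMIs of that list were left out, 258 WT and 227 N-LKO barcodes remained and the median log2 ratio of the identity list was -0.76. It was -1.45 in barcodes chosen by the second marker list and -0.64 in barcodes with at least 5 UMIs of the rule markers.

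Genes for the uptake, storage and breakdown of retinoids were also lower on balance, by less. Of the 30 genes on the list, 15 passed the filter, and their median log2 ratio was -0.41, with 11 lower and 4 higher. 1 gene was at least 2-fold lower and none was at least 2-fold higher, beside 7.62% and 6.49% of all genes, so the 2-fold count is near the background. The interval lay below 0 for 7, beside 15.5% of all genes, and above 0 for 2, beside 982 of all 7012. Bco1, which cleaves beta-carotene into retinal, was at 98.5 CPM in WT and 51.6 in N-LKO, with a log2 ratio of -0.92 (-1.62 to -0.28). Aldh1a1, which makes retinoic acid from retinal, was at 612 and 716 CPM, a log2 ratio of 0.23 (0.03 to 0.43) that turned to -0.11 when the rule asked for 2 UMIs. Lpl, which releases fatty acids from circulating lipoproteins, was higher, at 132 and 227 CPM, with 50.9 and 190 CPM in free RNA.

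The gene of the list with the greatest difference was Cyp26b1, which oxidizes retinoic acid and is itself switched on by it. Cyp26b1 was at 158 in WT and 42.4 CPM in N-LKO stellate barcodes, a log2 ratio of -1.87 (-2.62 to -1.24). Rarb, a retinoic acid receptor that is a classical target of its own ligand, was at 149 and 79.2 CPM, a log2 ratio of -0.90 (-1.46 to -0.39). Both genes were expressed in the endothelial barcodes too. Cyp26b1 was there at 375 in WT and 86.8 CPM in N-LKO, and Rarb at 123 and 68.7 CPM. With the barcodes that held 3 or more endothelial UMIs left out, the log2 ratio in stellate barcodes was -0.65 (-2.44 to 0.91) for Cyp26b1 and -0.39 (-1.08 to 0.28) for Rarb, and both intervals then spanned 0.

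The Rarb promoter is shown because it holds the retinoic acid response element for which the gene is known. The sequence runs from 250 bases before to 50 bases after the gene start in RefSeq (GRCm38.p6, chr14:16575427-16575726, minus strand), 5′ to 3′, and the capitals mark the element, at positions -53 to -37 from the start.
Rarb promoter: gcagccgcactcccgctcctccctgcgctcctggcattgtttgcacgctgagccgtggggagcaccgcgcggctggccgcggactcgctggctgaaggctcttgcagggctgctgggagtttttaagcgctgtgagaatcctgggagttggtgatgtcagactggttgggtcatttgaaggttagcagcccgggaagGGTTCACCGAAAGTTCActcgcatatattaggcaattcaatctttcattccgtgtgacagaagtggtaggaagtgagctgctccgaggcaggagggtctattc
The letters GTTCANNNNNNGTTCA, searched on both strands, occurred in 25 of 32851 promoters of this length (0.0761%). Among 24 retinoid genes with a promoter in the table, the match was found for Cyp26a1 and Rarb. A match describes the letters and not binding, and Cyp26a1 was too low in stellate barcodes to be compared, with 2 UMIs in WT and 0 in N-LKO.

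Genes linked to activation and contraction were higher as a sum, and this rested on few genes. The summed level of the 33 genes was 4502 in WT and 6650 CPM in N-LKO. Of the 27 that passed the filter, 18 were higher and 9 lower, with a median log2 ratio of 0.28. 5 were at least 2-fold higher and 1 was at least 2-fold lower, beside 6.49% and 7.62% of all genes. The interval lay above 0 for 9, beside 982 of all 7012 genes, and below 0 for 3, beside 15.5% of all genes. Alcam, Egfr, Il1r1 and Sntg1 were shown by the study from these libraries, so they are not independent evidence of direction. Without them, the remaining 23 summed to 2942 and 3250 CPM, with a median log2 ratio of 0.15. The median of all 27 was 0.07 when barcodes with transcripts of other mesenchymal cells were left out, and it turned to -0.17 in barcodes chosen by the second marker list.

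Alcam, Egfr, Il1r1 and Sntg1 were each higher in N-LKO. Alcam, an adhesion molecule, was at 283 CPM in WT and 735 in N-LKO, with a log2 ratio of 1.38 (1.13 to 1.63). Egfr, the epidermal growth factor receptor, was at 181 and 470 CPM, a log2 ratio of 1.37 (1.06 to 1.69), with 132 and 305 CPM in free RNA. Il1r1, the receptor for interleukin 1, was at 136 and 344 CPM, a log2 ratio of 1.33 (0.97 to 1.71). Sntg1, a syntrophin, was at 911 and 1807 CPM. All 4 stayed higher under the 25 other settings. The same genes were also higher in N-LKO endothelial barcodes, where the log2 ratio was 1.58 for Alcam, 1.5 for Egfr, 1.39 for Il1r1 and 1.48 for Sntg1. Of the list, 18 genes also passed the filter in endothelial barcodes, with a median log2 ratio of 0.37 in stellate and 0.83 in endothelial barcodes.

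The contractile genes Acta2, Tagln and Tpm2, known from myofibroblasts, had no counting interval above 0. Acta2 (smooth muscle actin) was under the filter, at 23.2 CPM in WT (16 UMIs) and 9.21 CPM in N-LKO (5 UMIs). Tagln, an actin-binding protein, was at 78.3 and 55.2 CPM, and Tpm2 was at 26.1 and 22.1 CPM. Postn (periostin) was at 126 and 77.3 CPM, a log2 ratio of -0.70 (-1.27 to -0.16). Ccn1, a matricellular target of YAP, was at 117 and 47.9 CPM, a log2 ratio of -1.27 (-1.99 to -0.64). On the other side, S100a6, a calcium-binding protein, was at 122 and 258 CPM, a log2 ratio of 1.08 (0.68 to 1.49), and fibronectin (Fn1) was at 354 and 530 CPM. Timp1, an inhibitor of matrix proteases that marks activated cells, was under the filter, at 8.69 CPM in WT (6 UMIs) and 27.6 CPM in N-LKO (15 UMIs).

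**Figure D2:**
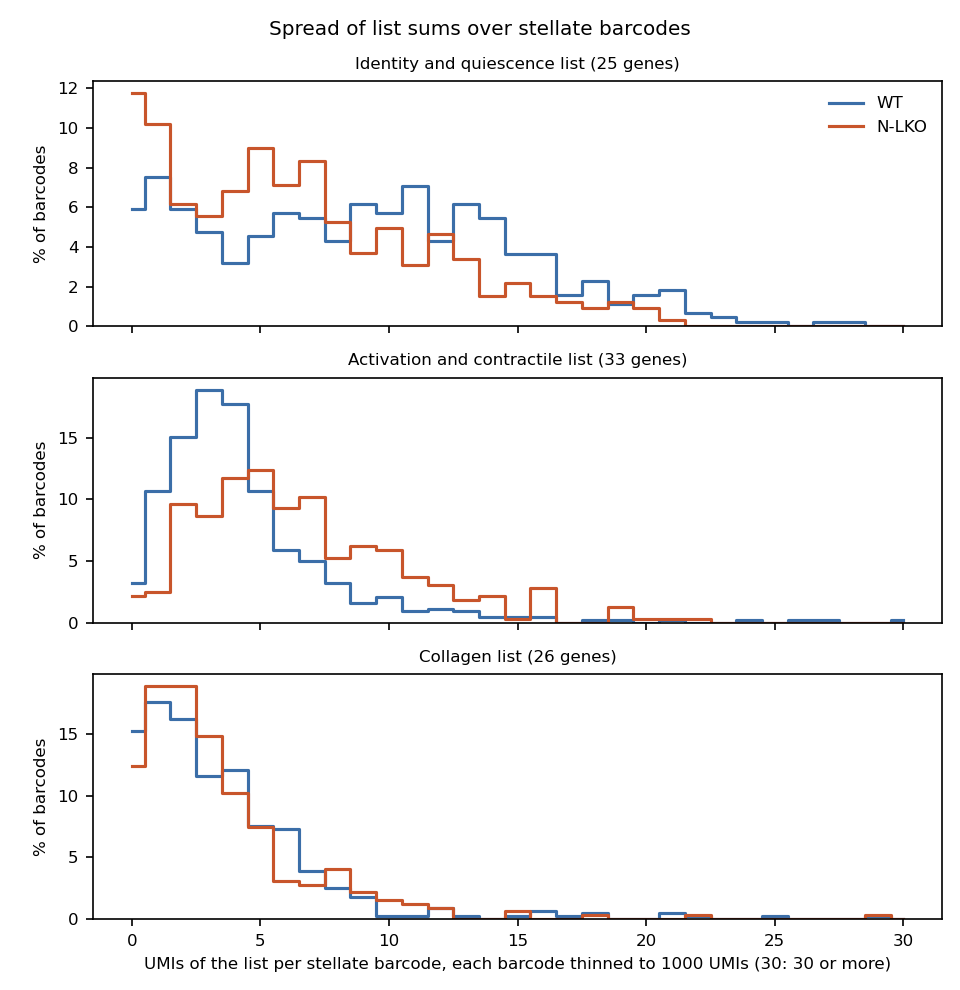
Share of stellate barcodes (vertical axis, percent) by the UMIs of a list per barcode (horizontal axis) after thinning each barcode to 1000 UMIs, for 439 WT barcodes (blue) and 323 N-LKO barcodes (orange). The N-LKO curve is shifted to the left for the identity list (medians 9 and 6) and to the right for the activation list (medians 4 and 6), and the collagen curves nearly overlap (medians 3 and 2). The activation list includes Alcam, Egfr, Il1r1 and Sntg1, which the study showed from these libraries.

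Differences between the libraries were spread over many barcodes. At 1000 UMIs per barcode, the identity list had a median of 9 UMIs (quartiles 4 to 13) in WT and 6 UMIs (2 to 10) in N-LKO. It had no UMI in 5.92% of the WT barcodes and 11.8% of the N-LKO barcodes. The activation list had a median of 4 UMIs (2 to 5) in WT and 6 UMIs (4 to 9) in N-LKO.

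**Figure D3:**
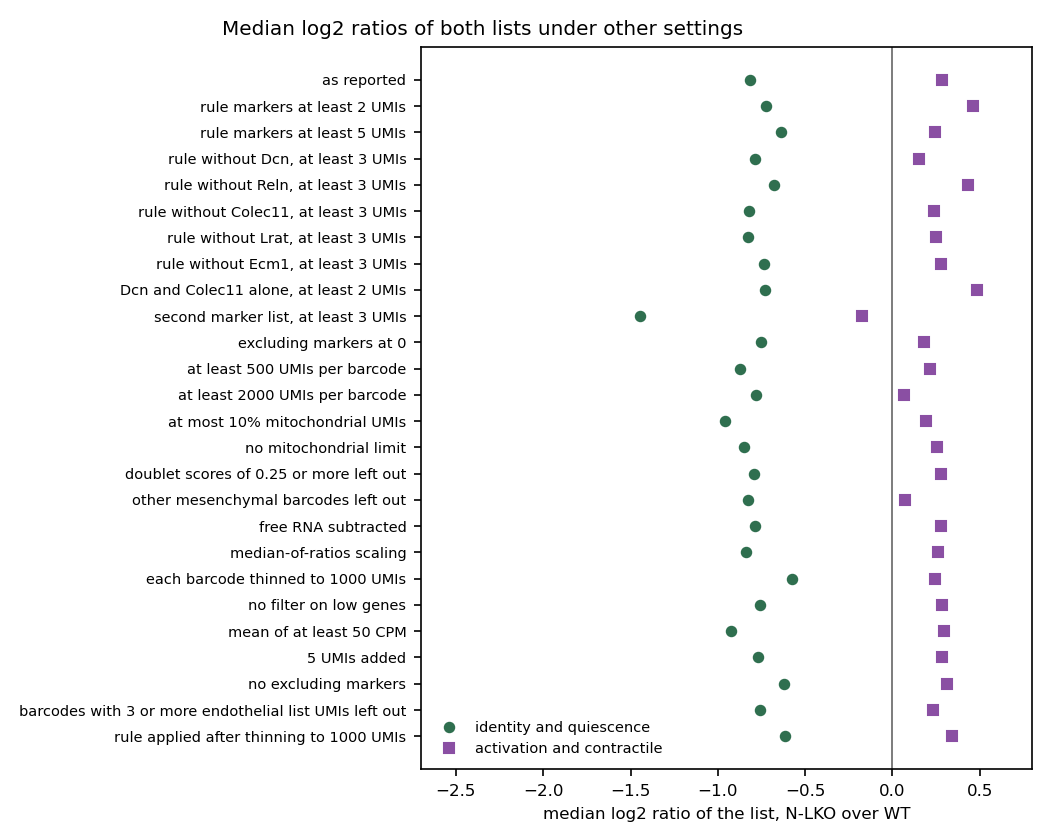
Median log2 ratio of the identity list (green circles) and the activation list (purple squares) as reported and under 25 other settings, named on the vertical axis. The identity median stays below 0 throughout, from -1.45 to -0.57, and the activation median lies above 0 except at -0.17 with the second marker list as the rule.

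Collagen genes were close to even between the libraries. Of 26 genes, 18 passed the filter, with 9 higher, 9 lower and a median log2 ratio of 0.05, and the summed level was 3455 in WT and 3206 CPM in N-LKO. Col1a1 was at 148 and 179 CPM, a log2 ratio of 0.27 (-0.14 to 0.69). Col1a2 was at 297 and 320 CPM, and Col3a1 was at 555 and 523 CPM, with intervals that spanned 0. These are the fibrillar collagens of scar, and Col1a2 was also shown by the study from these libraries. For Col1a1, the log2 ratio ran from -1.07 in barcodes of at least 2000 UMIs to 0.96 without the excluding markers. Col14a1, which decorates fibrils and is high in resting stellate cells, was at 1239 and 818 CPM, a log2 ratio of -0.60 (-0.77 to -0.43). Col4a5, a basement membrane chain, went from 5.80 to 47.9 CPM (4 and 26 UMIs), and Col15a1 from 10.1 to 38.7 CPM (7 and 21 UMIs).

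The shares of members with and without collagen transcripts differed little between the libraries. At 1000 UMIs, 67 WT (15.3%) and 40 N-LKO (12.4%) barcodes held no collagen UMI, and 224 (51.0%) and 161 (49.8%) held 3 or more. In barcodes with 3 or more collagen UMIs, the identity list stood at 10953 in WT and 7330 CPM in N-LKO, and the activation list at 5399 and 7765 CPM. In barcodes without any, the identity list stood at 4037 and 2280 CPM, and these barcodes held more hepatocyte transcripts, at 77193 and 32154 CPM.

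The other matrix genes were mixed. Among 22 matrix glycoproteins past the filter, 3 were at least 2-fold higher and 3 at least 2-fold lower, beside 6.49% and 7.62% of all genes, with a median log2 ratio of -0.02. Gpc6, a cell surface glypican, was at 487 CPM in WT and 1398 in N-LKO, with a log2 ratio of 1.52 (1.33 to 1.71). Lama2, a laminin chain, was at 29.0 and 166 CPM, while another chain, Lama1, was at 128 and 58.9 CPM. Sparcl1 and Efemp2, matricellular and elastic fiber proteins, were at 65.2 and 18.4 CPM and at 34.8 and 9.21 CPM. Among 12 proteases and inhibitors, Adamts12 was at 82.6 and 256 CPM, a log2 ratio of 1.62 (1.18 to 2.10), and Adamts1 at 190 and 62.6 CPM, a log2 ratio of -1.58 (-2.19 to -1.05). Mmp2 (20.3 and 20.3 CPM) and Timp2 (149 and 168 CPM) had intervals that spanned 0.

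**Figure D4:**
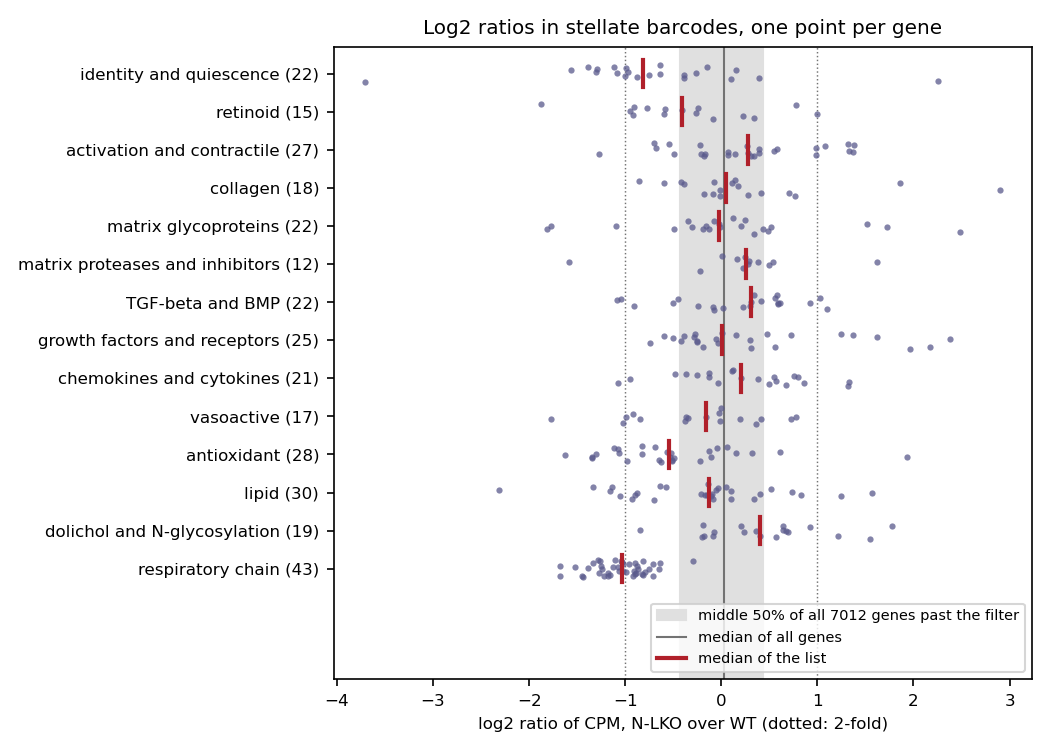
Log2 ratio of N-LKO over WT (horizontal axis) for each gene past the filter in 14 lists, with the number of genes in brackets, the list median as a red bar, the middle 50% of all 7012 genes in gray and 2-fold marked by dotted lines. The medians of the identity list (-0.82), antioxidant list (-0.55) and respiratory chain list (-1.04) lie to the left of the gray band.

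Signaling genes that act on stellate cells were mostly near the level of all genes. The median log2 ratio was 0.31 for 22 genes of TGF-beta and BMP signaling, 0.01 for 25 growth factors and receptors, 0.20 for 21 chemokines and cytokines and -0.16 for 17 vasoactive genes. Tgfb1 was at 34.8 CPM in WT and 53.4 in N-LKO, with an interval that spanned 0, and its receptor Tgfbr1 was at 116 and 175 CPM, a log2 ratio of 0.59 (0.15 to 1.04). Eng, a co-receptor that endothelial cells also carry, was at 255 and 123 CPM, and Id3, a target of BMP signals, was at 403 and 214 CPM. Pdgfrb and Pdgfra, receptors for the main stellate mitogen, were at 89.8 and 110 CPM and at 104 and 116 CPM, with intervals that spanned 0. Igfbp5 was at 119 and 464 CPM, a log2 ratio of 1.96 (1.60 to 2.34), and its 252 UMIs in N-LKO came from 31 barcodes. Pdgfc went from 7.25 to 40.5 CPM and Fgfr1 from 7.25 to 35.0 CPM, on 5 WT UMIs each.

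Of the 17 genes by which stellate cells answer vasoactive signals, 2 were at least 2-fold lower, beside 7.62% of all genes. The interval lay below 0 for 3, beside 15.5% of all genes, and above 0 for 2, beside 982 of all 7012 genes. It spanned 0 for the remaining 12, so these counts do not set the list apart from all genes. Npr3, the clearance receptor for natriuretic peptides, was at 46.4 in WT and 12.9 CPM in N-LKO. Gucy1b1, a subunit of the nitric oxide receptor, was at 155 and 77.3 CPM, a log2 ratio of -0.99 (-1.55 to -0.48), while its partner Gucy1a1 was at 162 and 145 CPM. Agtr1a, the angiotensin receptor, was slightly higher, at 323 and 414 CPM, a log2 ratio of 0.36 (0.09 to 0.63). Among chemokines, Ccl2, which draws monocytes, was at 71.0 and 33.1 CPM, and Cxcl1, which draws neutrophils, was at 18.8 and 47.9 CPM.

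The respiratory chain and antioxidant lists were lower in N-LKO, and so were their levels in free RNA. All 43 respiratory chain genes were lower in N-LKO stellate barcodes, 24 of them at least 2-fold, beside 7.62% of all genes, with a median log2 ratio of -1.04. The median of the same list was -1.24 in endothelial and -0.79 in Kupffer barcodes. The summed level of the list was 14891 in WT and 6959 CPM in N-LKO stellate barcodes, against 29933 and 9276 CPM in free RNA. With the free RNA estimate subtracted, the median turned to 1.14. The antioxidant list behaved alike, with 23 of 28 genes lower, a median log2 ratio of -0.55, and 0.42 after subtraction. Catalase (Cat) was at 1055 and 341 CPM in stellate barcodes and at 2038 and 663 CPM in free RNA, and Sod1 was at 604 and 245 CPM, against 1109 and 351 CPM. Of 30 lipid genes, 20 were lower. Fasn, the fatty acid synthase, was at 178 and 35.0 CPM in stellate barcodes and 375 and 50.8 CPM in free RNA, whereas Abca1, the cholesterol exporter, was higher, at 190 and 339 CPM.

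Genes of dolichol synthesis and N-glycosylation were slightly higher. Of 33 genes, 19 passed the filter, with a median log2 ratio of 0.40, 13 higher and 6 lower. The interval lay above 0 for 9, beside 982 of all 7012 genes, and below 0 for 1, beside 15.5% of all genes. The list summed to 1492 and 2149 CPM in free RNA, and its median was 0.19 with the free RNA estimate subtracted. Hspa5, the chaperone of the endoplasmic reticulum, was at 451 CPM in WT and 667 in N-LKO, with a log2 ratio of 0.56 (0.34 to 0.79), with 254 and 641 CPM in free RNA. Rpn1, a subunit of the oligosaccharyltransferase, was at 94.2 and 147 CPM. Dhdds, the partner of NgBR in dolichol synthesis, was at 11.6 and 35.0 CPM, on 8 and 19 UMIs. Ddit3, a stress-induced factor, was under the filter at 26.1 and 11.05 CPM.

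Position within the lobule was read from genes known to differ between portal and central stellate cells. The summed level of 5 central genes was 536 in WT and 320 CPM in N-LKO, and that of 5 portal genes was 403 and 365 CPM. The portal sum was carried by Igfbp3, and 3 of the 4 portal genes past the filter were higher, with a median log2 ratio of 0.48. The interval spanned 0 for 3 of these 4 and lay below 0 for 1, so no portal gene was higher beyond counting error. Of the central genes 2 were higher and 3 lower, with a median of -0.14. Their interval lay below 0 for 2, beside 15.5% of all genes, and spanned 0 for 3. Rspo3 and Spon2 (33.3 and 9.21 CPM) were the central genes at least 2-fold lower, while Adamtsl2 was at 44.9 and 58.9 CPM. In endothelial barcodes 1 of the 5 central genes passed the filter. Its log2 ratio was -1.22 there, with an interval below 0, and the summed level of the 5 was 93.9 in WT and 45.2 CPM in N-LKO. On the portal side, Igfbp3 was at 235 and 140 CPM and Il34 at 92.7 and 131 CPM.

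Transcripts of other cells moved with the groups in several lists. Portal fibroblast genes summed to 364 in WT and 547 CPM in N-LKO, and 52 WT (11.8%) and 63 N-LKO (19.5%) barcodes held 2 or more of their UMIs. 2 of the 15 portal fibroblast markers were at 0 in each library, Gli1 and Pi16 in WT, and Gli1 and Entpd2 in N-LKO. Mesothelial genes summed to 71.0 and 147 CPM, with none of the 6 at 0, and smooth muscle genes to 203 and 145 CPM, with Cnn1, Actg2 and Kcnmb1 at 0 in both libraries and Pln in WT. Their part in the differences above was not tested, except that the settings without such barcodes gave the medians stated. The lymphocyte list stood at 925 and 1877 CPM, mostly from Igkc, and the cholangiocyte list at 79.7 and 337 CPM, mostly from Spp1, beside 161 and 603 CPM and 52.4 and 191 CPM in free RNA. The macrophage list stood at 1377 and 1633 CPM. Cycling genes were few, with 87 UMIs in WT and 83 in N-LKO. Early genes that respond to cell isolation had a median log2 ratio of -0.14, and Fos was at 232 and 103 CPM.

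Over all genes, 455 of 7012 (6.49%) were at least 2-fold higher in N-LKO stellate barcodes and 534 (7.62%) at least 2-fold lower. In endothelial barcodes the shares were 6.44% and 6.27%, and in Kupffer barcodes 2.54% and 4.83%. To name genes, those that stood at least 2-fold over free RNA were ordered by the interval bound nearest to 0, which left 3537 genes. The 12 highest were Ighg2c, Zbtb16, Nxph1, Kcnip4, Grip1, Fmo2, C7, Fkbp5, Rbfox1, Thsd7a, Cxcl13 and Jchain. Among them are long genes, Rbfox1 (1526 kb), Kcnip4 (1135 kb), Grip1 (633 kb), Thsd7a (438 kb) and Nxph1 (301 kb). In endothelial and Kupffer barcodes the log2 ratio was 3.00 and 2.33 for Grip1, 1.37 and 1.24 for Kcnip4, and 2.12 and 1.19 for Fmo2. For Cxcl13 it was -1.69 and -1.15. Zbtb16 and Fkbp5 are known targets of glucocorticoids. Zbtb16 was at 50.7 in WT and 435 CPM in N-LKO, in 149 N-LKO barcodes, and its log2 ratio of 3.08 (2.58 to 3.66) stood beside 3.18 in endothelial and 2.91 in Kupffer barcodes. Free RNA held 25.1 and 174 CPM of Zbtb16. Fkbp5 was at 27.5 and 188 CPM, with log2 ratios of 1.87 and 2.45 in those cells. Thsd7a, a membrane protein, was at 53.6 and 291 CPM, in 95 N-LKO barcodes, with 3.09 in endothelial barcodes and 2.06 in Kupffer barcodes.

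Several of the 12 rested on few barcodes. The 282 UMIs of the antibody gene Ighg2c in N-LKO came from 3 barcodes, 162 of them from 1. Of 178 Jchain UMIs, 80 came from 1 barcode, and of 47 Kcnip4 UMIs, 23. The 50 Cxcl13 UMIs came from 6 barcodes, and the log2 ratio of Cxcl13 turned to -2.22 when no UMI of an excluding marker was allowed. Fmo2, a flavin monooxygenase, was broader, with 75 UMIs in 38 barcodes, at 138 CPM against 15.9 CPM in WT.

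The 12 lowest were Hhip, Ptprt, Egfem1, Fcna, Abi3bp, Cyp26b1, Ecm1, Foxf1, Ifitm1, Bmp10, Col24a1 and Apold1, of which Ecm1 belongs to the rule. Abi3bp, a matrix protein, was at 275 CPM in WT and 71.8 in N-LKO, with a log2 ratio of -1.92 (-2.47 to -1.44). Fcna, a ficolin that recognizes microbial sugars, was at 233 and 40.5 CPM. In Kupffer barcodes Fcna was at 338 and 115 CPM, a log2 ratio of -1.56 (-1.70 to -1.42). Whether the Fcna transcripts of the members came from Kupffer cells was not tested. Egfem1 was at 171 and 25.8 CPM, and its log2 ratio was -0.76 in endothelial and -1.49 in Kupffer barcodes. Foxf1, a transcription factor of the stellate lineage, was at 53.6 and 9.21 CPM (37 and 5 UMIs). Bmp10, a ligand that forms a dimer with BMP9, was at 52.2 and 9.21 CPM (36 and 5 UMIs). Ptprt, a receptor phosphatase, had 35 UMIs in WT and 1 in N-LKO.

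Log2 ratios went up with the length of the gene on the chromosome, from first to last exon, in GENCODE M21. With the genes in 5 groups of equal size by length, in the shortest group in stellate barcodes (median 5.61 kb) the median log2 ratio was -0.44, and in the longest group (median 174 kb) it was 0.39. The same medians were -0.38 and 0.38 in endothelial barcodes and -0.23 and 0.29 in Kupffer barcodes. Relative to the median of genes of like length, the identity list stood at -0.66, the activation list at 0.37, the retinoid list at -0.37, the respiratory chain list at -0.63 and the collagen list at -0.16. The part of gene length in each difference was not tested.

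**Figure D5:**
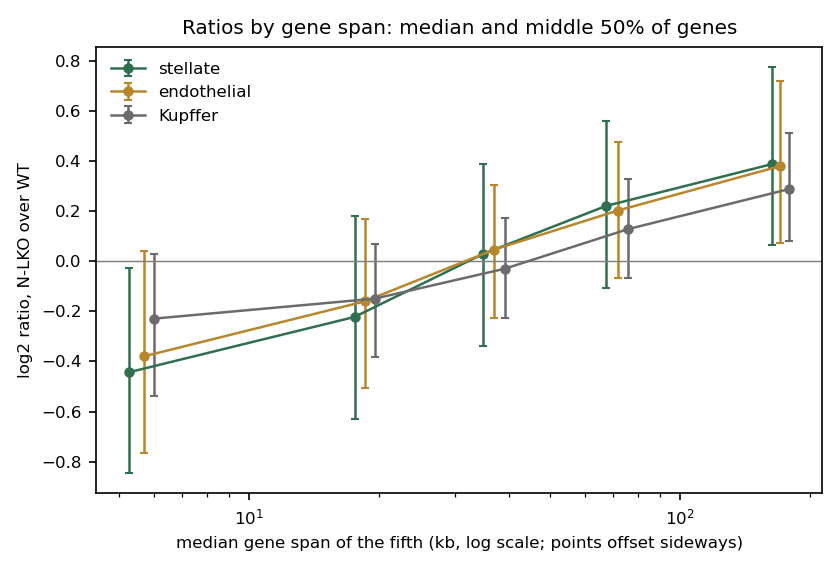
Median log2 ratio of N-LKO over WT (vertical axis, bars for the middle 50% of genes) by 5 groups of gene length in kb (horizontal axis, log scale) in stellate, endothelial and Kupffer barcodes. In each of the 3 cell types the median goes up from the shortest to the longest genes, in stellate barcodes from -0.44 to 0.39.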

How the data were processed

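Single-cell suspensions from mouse liver were profiled by 10x Genomics 3′ v3 chemistry, with 1 WT library and 1 N-LKO library. The authors deposited UMI counts as whole numbers for each gene in each barcode, made with Cell Ranger (7.1.0 per the file headers), with no normalization. The submitters' processing notes name mm9 and Seurat, and whether intronic reads were counted is not given in the sources used here. The libraries held 85522287 UMIs in 100171 barcodes (WT) and 87575064 UMIs in 90147 barcodes (N-LKO). The authors' cell annotation was not used, so names were rebuilt from markers and a difference from the study may come from them.

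A minimum of 1000 UMIs and 400 genes and a maximum of 30% mitochondrial UMIs left 20158 in WT and 22214 in N-LKO. Members, gene lists and comparisons were chosen with earlier results of these data known. Members met the marker rule given with the results. Endothelial barcodes (1176 and 1515) held at least 3 UMIs of Stab2, Btnl9 and Clec4g, and Kupffer barcodes (1938 and 3285) at least 3 of Clec4f, Vsig4 and Cd5l, each with at most 1 UMI of the stellate rule markers and at most 1 of the markers of the remaining cells. Doublets were scored by Scrublet (scanpy 1.11.5, 10% expected) and left out only in an alternative setting.

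UMIs were summed over members and scaled to counts per 1000000 (CPM). With 1 library per group no test across samples was possible and no p-values were computed. CPM carries exact Poisson intervals, shares carry Clopper-Pearson intervals, and log2 ratios (N-LKO over WT, 0.5 UMI added to each sum) carry exact conditional binomial intervals. All are at 95% and cover counting error only. Genes needed a mean of 20 CPM over the 2 libraries, and 2-fold stood in for a call. Named genes were the rule markers, list members, and the 12 highest and 12 lowest genes at least 2 times over free RNA, by the bound nearest to 0. A few list members are not reported here singly but remain in the sums and medians of their lists. Gene length came from GENCODE M21 (GRCm38), which matched 32158 of 32285 gene IDs. The ratio code was tested on simulated data. Python 3.11.15, NumPy 2.4.6, SciPy 1.17.1 and pandas 2.3.3 were used.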

Additional observations from a re-analysis of the deposited data

Results flagged for a closer look

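Barcodes too shallow for the main analysis also held stellate transcripts. Among barcodes of at least 500 and under 1000 UMIs, 238 of 56087 in WT (0.424%, Clopper-Pearson interval 0.372 to 0.482) and 167 of 46124 in N-LKO (0.362%, 0.309 to 0.421) met the stellate marker rule. They held 2781 and 2832 CPM of the second marker list, against 79.2 and 138 CPM in free RNA. These counts were made without holding barcodes to both the gene and the mitochondrial limit. Not all of these barcodes entered the alternative with a minimum of 500 UMIs. That alternative had 595 WT and 396 N-LKO members, against 439 and 323 in the main analysis.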

How the results depend on the processing

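No paired analysis was possible because each group has 1 library, so only replicate number 1 is shared. In all, 25 alternatives were run, 3 of them chosen after seeing the data (no excluding markers, barcodes with 3 or more endothelial UMIs left out, and the rule applied after thinning). The median log2 ratio of the identity list stayed below 0, from -1.45 with the second marker list to -0.57 with thinned barcodes. That of the activation list ran from -0.17 with the second marker list to 0.48. The difference in the stellate share, -6.05 points, was -8.10 with at least 2 UMIs of the rule markers, -2.88 with the second marker list, -3.72 with excluding markers at 0, -10.0 with at least 2000 UMIs, -7.81 with at most 10% mitochondrial UMIs, -15.7 without excluding markers and -3.14 without barcodes of 3 or more endothelial UMIs.

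The count of genes at least 2-fold higher, 455, was 905 with at least 2000 UMIs, 1459 with at most 10% mitochondrial UMIs (154 and 40 barcodes), 1043 with free RNA subtracted, 3385 with no filter on low genes, 164 with a mean of 50 CPM and 272 without excluding markers. The count of genes at least 2-fold lower, 534, was 836 with at most 10% mitochondrial UMIs, 2687 with no filter, 264 with a mean of 50 CPM, 320 with 5 UMIs added and 305 without excluding markers. Of 2771 values of 111 genes under the alternatives, 2599 kept the sign of the reported value, and 64 of the genes kept it under each alternative run. Of 471 medians of 19 further lists, 420 kept the sign, as did 6 lists under each alternative run. Collagen kept its sign in 18 of 25, growth factors in 16, matrix glycoproteins in 10, macrophage in 21 and TGF-beta and BMP in 22, with a range of -0.20 to 0.45 for the last.

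Some values whose interval spanned 0 in the main analysis turned sign in other settings. Intervals of the list medians and of some single genes are not printed above. Those of the list medians have the ratios of member genes as bounds. They thus reflect the spread among the genes of a list and not counting error. The values below turned sign although their interval in the main analysis did not reach 0. With at most 10% mitochondrial UMIs these were the matrix protease (-0.10), antioxidant (0.029), lymphocyte (-0.57) and isolation stress (0.10) lists, Itgav (-0.11), Jchain (-4.78), Rbp4 (0.13) and Vim (-0.17). With the second marker list isolation stress was 0.0367 and Vim -0.19. With at least 2 UMIs of the rule markers isolation stress was 0.0848 and Aldh1a1 -0.11. With excluding markers at 0 Cdh11 was -0.0833 and Cxcl13 -2.22. With at least 2000 UMIs Col5a2 was -0.0341 and Rbp4 0.20. With other mesenchymal barcodes left out Ank3 was 0.0439. With free RNA subtracted the antioxidant list was 0.42, the respiratory list 1.14, Dhrs4 4.62 and Rbp4 1.19. Without excluding markers Rgs5 was 0.0037. The cause of each was not tested. The median of all genes stayed within -0.05 and 0.19 over the settings.

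Depth limits the rarer genes, since a gene at the filter such as Mmp2 had 14 UMIs in WT and 11 in N-LKO.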
